A study of Mus musculus with 2 samples.

Results

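The genes that bring iron into a cell, store it and let it out were followed in mouse CD8+ T cells that had been activated or left naive. The 8 genes, of 19324 gene symbols named on the array, were Tfrc, Slc11a2, Fth1, Ftl1, Slc40a1, Ireb2, Aco1 and Hmox1. The set was fixed by gene name, with earlier results of these data known, and every probe set annotated to one of them was read, together with the array's own control probe sets for the transferrin receptor. Activated cells were proliferating CD8+ T cells taken 72 h after activation, and naive cells were purified CD8+ T cells without it. Both came from pmel-1 mice, whose T cells carry a transgenic receptor for a melanocyte antigen. The labels and design text used here do not state the age of the mice, the source organ, the purification or the activating stimulus. RNA of 4 independent experiments was pooled for each group and hybridised to 1 array, so neither group has replicates. No difference below carries an error or a test, and having 1 array a group limits how precise any value can be.

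Iron reaches most cells bound to transferrin, which docks on the transferrin receptor and is taken into endosomes, where iron is released and carried into the cytosol by a divalent metal transporter. Iron that is not used at once is stored in ferritin, a hollow shell of heavy and light chains, and ferroportin is the known route by which iron leaves the cell. When iron is scarce, the iron regulatory proteins bind hairpins in the messages of these genes. They stabilise the transferrin receptor message and block translation of the ferritin messages, so an array sees the first of these effects and not the second. Proliferating cells need iron for ribonucleotide reductase, respiration and iron-sulfur proteins, and the transferrin receptor, CD71, is a long-used activation marker of T cells.

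The stretches around the annotated start are shown for the receptor gene and for both ferritin chains, the genes of uptake and storage whose values are set side by side below. Sequences and coordinates come from RefSeq on the build GRCm38.p6, and start windows of 5 of the 8 genes were read, namely Tfrc, Fth1, Ftl1, Ireb2 and Aco1, while those of Slc11a2, Slc40a1 and Hmox1 were not analysed here. Each line runs 5′ to 3′ along the gene, from 60 bases before the start to 30 bases after it. Tfrc lies at chr16:32608836-32608925 on the plus strand, Fth1 at chr19:9982586-9982675 on the plus strand and Ftl1 at chr7:45459857-45459946 on the minus strand. Capitals mark any of 4 motifs searched on both strands, namely ACGTG (core of hypoxia response elements), TGACGT (part of cyclic AMP response elements), GGGCGG (the box bound by Sp factors) and CCAAT (the box bound by NF-Y, which reads ATTGG on the other strand).
Tfrc: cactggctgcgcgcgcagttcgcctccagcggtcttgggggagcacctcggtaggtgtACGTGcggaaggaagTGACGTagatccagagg
Fth1: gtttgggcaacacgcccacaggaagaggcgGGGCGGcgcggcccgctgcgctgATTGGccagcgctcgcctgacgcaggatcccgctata
Ftl1: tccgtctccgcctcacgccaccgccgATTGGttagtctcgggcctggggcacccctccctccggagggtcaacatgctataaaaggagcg

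In windows from 250 bases before to 50 bases after the start, ACGTG was found in 19.6% of 32851 annotated starts, TGACGT in 7.51%, GGGCGG in 35.7% and CCAAT in 37.4%. Tfrc held ACGTG from position -2 to 3 and TGACGT from position 14 to 19, where position 1 is the first annotated base, and CCAAT from position -124 to -120. The window of its second annotated start, which overlaps the first and holds the same ACGTG and TGACGT sites, had GGGCGG at 2 places. The window shown for Fth1 held GGGCGG and CCAAT and neither of the other motifs, and so did that of Ftl1, whose GGGCGG lies outside the printed stretch. A second annotated start of Fth1 held none of the 4 motifs. Such matches describe letters only and say nothing about binding in these cells.

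Deposited values are intensities on a linear scale, and values under 100 were treated as too low to compare. A probe set counted as measured when at least 1 array reached 100, and values under 100 were raised to 100 before a ratio was formed, so that the ratio is then a lower bound. A probe set was called higher or lower when the arrays differed at least 1.4-fold and by more than 100, which follows the study's own rule as far as intensities allow. Of the 45037 probe sets other than controls, 57.3% lay under 100 on both arrays. The median log2 ratio of the 9842 measured genes was 0.01, and spike-in controls above 100 gave log2 ratios between -0.42 and 0.20. Within a gene, the log2 ratios of its probe sets had a standard deviation of 0.39, which holds no spread between experiments. Of the CD8 T cell markers, Cd8a was at 4860 on the activated array and 6020 on the naive array, and Cd3e at 2724 and 3035, neither past the size rule. Of 7 measured T cell markers 3 were lower in activated cells, namely Cd8b1 (3554 in activated, 7725 in naive), Thy1 (2751 and 4763) and Cd247 (1984 and 3036), and none was higher. All 7 listed T cell markers with a probe set of their own reached 100 on both arrays.

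Transcripts of other blood cells were unequal between the pools, which could bear on results for genes that those cells express. Of 11 globin probe sets, 5 exceeded 1000 on the naive array, where they lay between 4242 and 8254. They lay between 1 and 25.4 on the activated array. These 5 were selected for high naive values, so their direction was partly set by that choice. Of the rest, one of Hbb-b2 was at 1 in activated and 114 in naive cells. The others lay under 100 on both arrays, among them one of Hba-a1 (45.9 in activated, 50.9 in naive) and one of Hba-a2 (92.5 and 67.6). Among 10 erythroid markers with a probe set of their own, 2 reached 100 in activated cells and 3 in naive cells, with summed intensities of 452 and 7376, most of the second being Hbb-b2. The 2 at 100 or more in activated cells were Klf1 (124 in activated, 84.5 in naive) and Slc4a1 (105 and 107), neither past the size rule. The erythroid markers Epb42, Rhag, Ermap and Tspo2 lay under 100 on both arrays. Macrophage and monocyte markers summed to 1078 in activated and 1836 in naive cells, with 2 and 4 of 17 reaching 100. The 4 that reached 100 were Csf1r (345 in activated, 642 in naive), C1qb (238 and 214), Lyz1 (10.0 and 354) and Lyz2 (21.8 and 173). The other 13, among them Adgre1, Cd68, C1qa, Mertk and Cd163, lay under 100 on both arrays. B cell markers summed to 3494 in activated and 6104 in naive cells, with 2 and 5 of 8 at 100 or more. Most of the second sum was Ighm (2968 in activated, 4990 in naive). Dendritic cell markers, including major histocompatibility class II genes, summed to 1035 and 7391, with 2 and 5 of 9 at 100 or more. Most of the naive sum lay in H2-Aa, H2-Ab1, H2-Eb1 and Cd74. The dendritic cell markers Flt3, Zbtb46, Xcr1 and Siglech lay under 100 on both arrays, and Itgax was at 27.6 in activated and 115 in naive cells. The part of these cells in the results below was not tested, and in pooled RNA fewer cells of a type and less RNA per cell cannot be told apart.

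**Figure D1:**
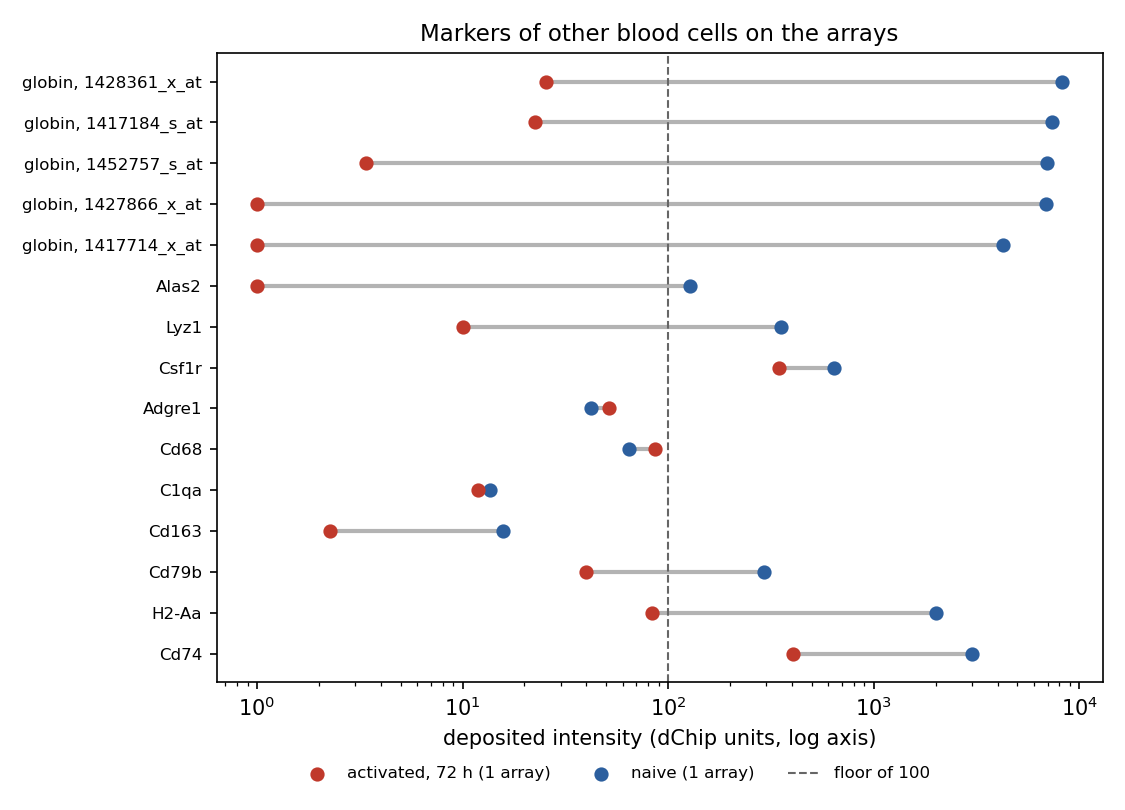
Deposited intensity on a log axis, with the activated array in red and the naive array in blue. Shown are the 5 of 11 globin probe sets above 1000 on the naive array, and 10 marker genes of other blood cells. The globin points lie between 4242 and 8254 on the naive array and at 25.4 or below on the activated array, and the macrophage and monocyte gene Csf1r is at 345 and 642 on the activated and naive arrays, above the dashed floor of 100, while Adgre1, Cd68, C1qa and Cd163 stay under it on both.

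Every probe set of the transferrin receptor gene Tfrc was higher in activated cells, while the transporter Slc11a2, both ferritin chains, Ireb2 and Hmox1 showed smaller or divided differences. Aco1 was the only other gene past the size rule by its brightest probe set, and Slc40a1 was under 100 on both arrays. Counted by probe set, 18 of 22 were measured, of which 8 were higher and 2 lower in activated cells. Without the control probe sets, 5 of 15 measured were higher and 2 lower. Of all measured probe sets other than controls, 21.9% were higher and 19.3% lower. Of the 8 higher probe sets, 6 belong to Tfrc and 2 to Aco1, so they are not separate findings. Counted by gene, 7 members had a probe set of their own and 6 were measured. Of these, 2 were higher and none lower, against 23.7% higher and 20.6% lower among all measured genes.

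**Figure D2:**
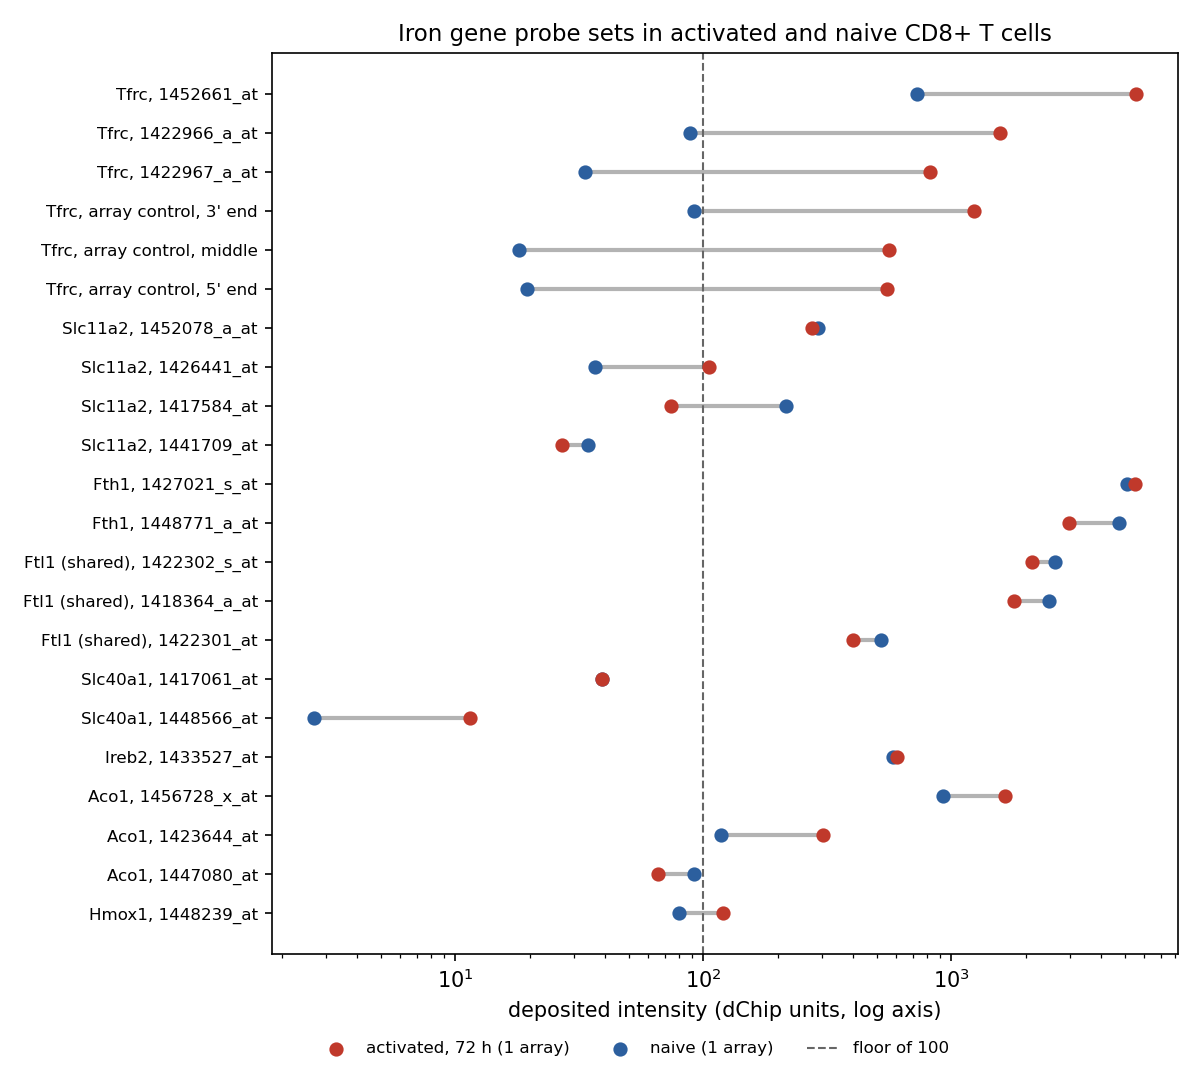
Deposited intensity on a log axis for all 22 probe sets of the 8 iron genes, ordered by gene, with the activated array in red and the naive array in blue, joined by a line. All 6 Tfrc rows run far to the right in activated cells, the ferritin rows stay close together or shift left, and both Slc40a1 rows lie under the dashed floor of 100.

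Tfrc encodes the transferrin receptor, the main entry of iron into dividing cells. Its brightest probe set was at 5579 in activated cells, against 725 in naive cells, and was the only one of its probe sets above 100 on both arrays (7.70-fold higher, log2 ratio 2.94). The other 2 regular probe sets were at 1571 and 821 in activated cells, against 88.0 and 33.4 in naive cells, so that their ratios are at least 15.7-fold and 8.21-fold. The array also carries 3 control probe sets along the receptor message. The one at the 3′ end was at 1240 in activated and 91.7 in naive cells (at least 12.4-fold higher). The middle one was at 563 in activated and 18.1 in naive cells (at least 5.63-fold), and the one at the 5′ end at 552 and 19.5 (at least 5.52-fold). The receptor message was thus higher in activated cells from one end to the other, by probe sets that read different parts of it. Only the brightest probe set placed Tfrc above 100 in naive cells, so whether the naive pool held a low or a moderate level depends on the probe set. Median, quantile and loess scaling left the log2 ratio of the brightest probe set between 2.72 and 2.94. Of 8395 genes at 100 or more on both arrays, 47 had a ratio above that of Tfrc. Immature red cells also carry the receptor, and the pool with more globin message, the naive one, had less Tfrc. The part of red cells in the Tfrc values was not tested.

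The 3 genes whose log2 levels on the 2 arrays lay nearest to those of Tfrc were Stmn1, Kpna2 and Cks1b. Stmn1 encodes the microtubule-destabilising protein stathmin and was at 5753 in activated and 811 in naive cells (distance 0.17 on the log2 scale). Kpna2, a nuclear import adaptor gene, was at 6083 in activated and 789 in naive cells (distance 0.17). Cks1b, which encodes a partner of cyclin-dependent kinases, was at 4708 in activated and 743 in naive cells (distance 0.25). With 2 arrays, likeness means only a similar pair of intensities, and intensities of different probe sets are not on 1 scale of abundance.

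Slc11a2 encodes the divalent metal transporter that moves iron out of endosomes. Its brightest probe set was at 274 in activated and 291 in naive cells and did not pass the size rule. A second one was at 74.0 in activated and 216 in naive cells (at least 2.16-fold lower), and another at 106 and 36.7, past neither limit. The dimmest lay under 100 on both arrays, at 27.0 and 34.2. The probe sets therefore gave no single direction for Slc11a2, and none of them showed a rise of the kind seen at Tfrc.

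Around the receptor, 14 genes of the transferrin cycle and of other iron importers were listed, of which 13 had a probe set of their own and 7 were measured. Of these 2 were higher (28.6%) and 1 lower (14.3%) in activated cells, against 23.7% and 20.6% of all measured genes. The median log2 ratio was 0.29, against 0.01 over all measured genes. Slc39a8, which encodes the metal importer ZIP8, was at 369 in activated and 78.1 in naive cells (at least 3.69-fold higher), although its other probe set lay under 100 on both arrays. Rab11a, a regulator of recycling endosomes, was at 1356 in activated and 947 in naive cells (1.43-fold higher). Mcoln1, a lysosomal cation channel gene, was at 210.0 in activated and 315 in naive cells (1.499-fold lower), although log2 ratios of its 3 measured probe sets ran between -0.58 and 0.21. The related importer gene Slc39a14 was at 282 and 280.0, and the sorting genes Snx3 (2190 in activated, 1795 in naive) and Ehd1 (595 and 485) did not pass. The STEAP family includes the ferric reductases that work with the receptor in red cell precursors. Steap1, Steap2, Steap3 and Steap4 lay under 100 on both arrays, with Steap3 at 80.0 in activated and 52.4 in naive cells, as did the second receptor gene Tfr2 (38.7 and 45.8).

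Ferritin messages were high in intensity on both arrays and did not follow the receptor. Fth1 encodes the heavy chain, which oxidises iron for storage, and its 2 probe sets disagreed. The first was at 5484 in activated and 5119 in naive cells (log2 ratio 0.10, not past the size rule). The second was at 2989 in activated and 4732 in naive cells (1.58-fold lower, log2 ratio -0.66). The first turned to -0.26 under quantile normalization and to -0.12 under loess scaling, and the second was lower under all 3 other scalings, between -0.92 and -0.66 with the deposited scaling included. Both carry name endings that the manufacturer gives to probe sets which may read more than 1 transcript.

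Ftl1 encodes the light chain, which helps to form the iron core. All 3 of its probe sets also name its pseudogene Ftl1-ps2, and one names copies of a microRNA gene too, so their values cannot be assigned to Ftl1 alone. They were at 2108, 1792 and 403 in activated cells, against 2612, 2480 and 519 in naive cells. Each was lower in activated cells, by 1.24-fold, 1.38-fold and 1.29-fold, and none reached the minimum of 1.4. The middle one, which lies closest to the limit, passed it as lower under quantile normalization (1.45-fold) and loess scaling (1.49-fold). It was the only one of the 22 probe sets whose call changed with the scaling. Ferritin messages are abundant in red cell precursors and macrophages. The lower ferritin probe sets ran naive over activated. So did the 5 globin probe sets above 1000 in naive cells, and Csf1r, Lyz1 and Lyz2, given above. The macrophage marker C1qb did not (238 in activated, 214 in naive), and 13 others of that list lay under 100 on both arrays. The part of these cells in the ferritin values was not tested.

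**Figure D3:**
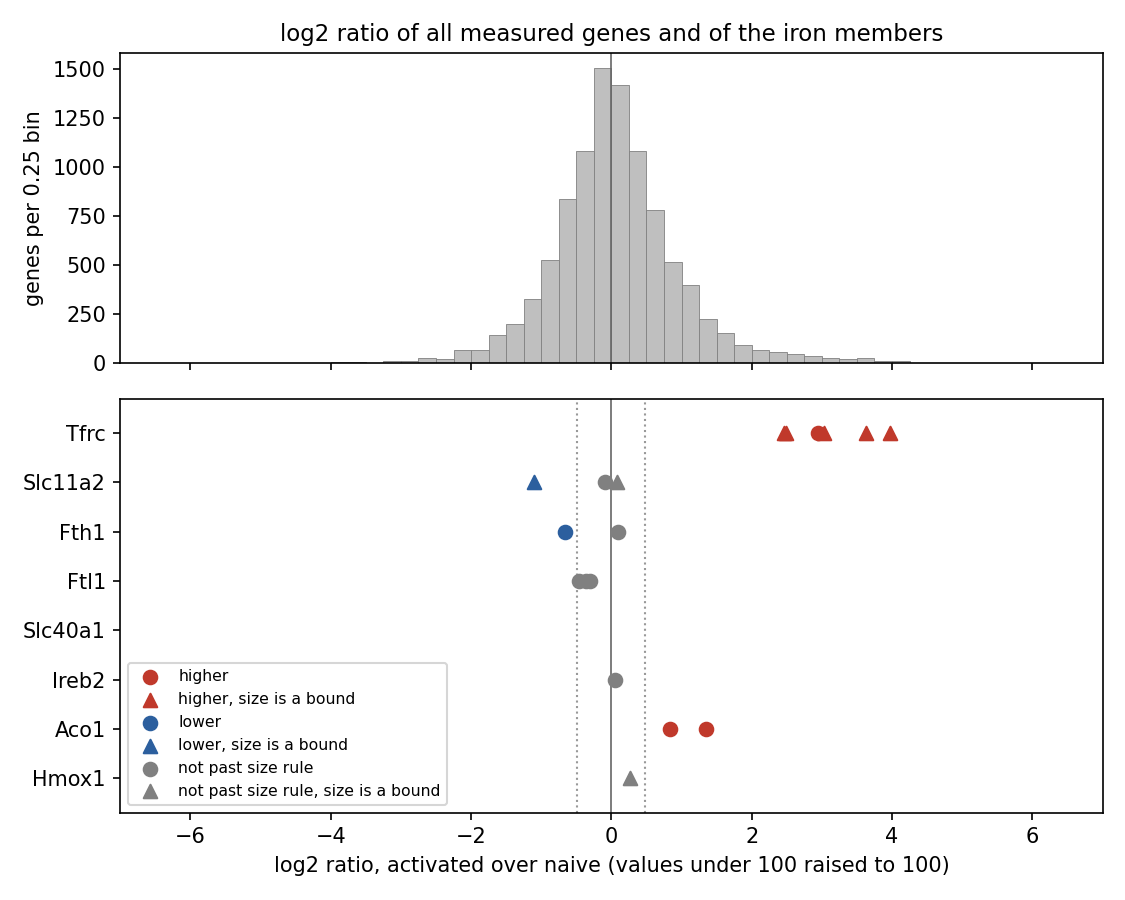
Upper panel, number of measured genes per bin of log2 ratio of activated over naive cells. Lower panel, the same ratio for each measured probe set of the 8 iron genes, with triangles where 1 array was under 100 and dotted lines at the fold minimum of 1.4. Tfrc lies between 2.46 and 3.97 at the far right of the distribution, Aco1 at 0.83 and 1.36, and the ferritin chains between -0.66 and 0.10; Ftl1 points are shared with its pseudogene and Slc40a1 has none.

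Of 7 listed genes of iron chaperones and ferritin turnover, 6 were measured, with 2 higher, 2 lower and a median log2 ratio of 0.21. Each direction thus held 33.3%, against 23.7% higher and 20.6% lower among all measured genes. Pcbp1, whose RNA-binding product also delivers iron to ferritin, was at 5608 in activated and 3329 in naive cells (1.68-fold higher). Its relative Pcbp2 was at 5740 and 4748 by the brightest of its probe sets and did not pass, while log2 ratios of its 3 measured probe sets ran between 0.27 and 1.01. Ncoa4, the cargo receptor that takes ferritin to lysosomes to free its iron, was at 1027 in activated and 1509 in naive cells (1.47-fold lower), and Ncoa4 is also known for its role in red cell precursors. Herc2, which encodes a ubiquitin ligase known to act on the Ncoa4 protein, was at 332 and 649 (1.96-fold lower). The other higher gene, Nampt (1742 in activated, 610 in naive), makes a precursor of NAD and has no established part in ferritin turnover. Cybrd1, a ferric reductase gene, was at 110 and 80.2, and mitochondrial ferritin, Ftmt, at 17.4 and 12.5.

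Slc40a1 encodes ferroportin, the iron exporter, which is best known from gut cells, macrophages and hepatocytes. Its 2 probe sets were at 39.0 and 11.5 in activated cells, against 39.0 and 2.68 in naive cells. Both lay under the level of comparison, so no ratio was formed, and low values of this kind do not show that the message was absent. The partners of ferroportin were likewise low. The ferroxidase genes Heph (1 in activated, 17.5 in naive) and Cp (24.9 and 17.4) and the hepcidin gene Hamp (65.8 and 51.0) lay under 100 on both arrays. Of 8 listed export partners 2 were measured and 1 was higher, too few to set against the 23.7% of all measured genes. This was Flvcr1, a gene of the FLVCR transporter family linked to heme export, at 1157 in activated and 723 in naive cells (1.6-fold higher), while Abcg2 was at 159 and 149.

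The iron regulatory proteins are encoded by Aco1 and Ireb2. Aco1 encodes cytosolic aconitase, which turns into an RNA-binding protein when it loses its iron-sulfur cluster. Its brightest probe set was at 1642 in activated and 922 in naive cells (1.78-fold higher, log2 ratio 0.83). A second probe set was at 303 in activated and 118 in naive cells (2.56-fold higher, log2 ratio 1.36), and the dimmest lay under 100 on both arrays, at 66.0 and 91.6. The brightest has a name ending used for probe sets that may cross-hybridise, and the second, which has none, gave the larger ratio. Ireb2 encodes the partner that is controlled by its own breakdown, and its single probe set was at 605 in activated and 582 in naive cells. Its log2 ratio of 0.06 became -0.05 under quantile normalization and -0.02 under loess scaling, so that no direction can be given. The messages of the RNA-binding pair thus differed in their ratios on these arrays, and protein activity was not measured.

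The next list held 13 genes that control these proteins, the transcription of iron genes or RNA decay. Of the 13, 11 were measured, with a median log2 ratio of -0.02. Of these 2 were higher (18.2%) and 5 lower (45.5%), against 23.7% and 20.6% of all measured genes. The lower ones include the RNA decay genes Zfp36 and Zfp36l1. Fbxl5, whose product senses iron and marks the Ireb2 protein for destruction, was at 311 in activated and 531 in naive cells (1.71-fold lower). The other subunits of its ubiquitin ligase did not pass by the probe sets that name them alone, with Skp1 at 3118 in activated and 2878 in naive cells, Cul1 at 904 and 749, and Rbx1 at 44.5 and 101. Bach1, a heme-sensing repressor of Hmox1 and ferritin genes, was at 123 in activated and 787 in naive cells (6.41-fold lower), and its other measured probe set gave a log2 ratio of -0.69 as a bound. Nfe2l2, an activator of the same genes, was at 544 and 848 (1.56-fold lower). Hif1a, whose product can activate Tfrc under low oxygen, was at 3772 in activated and 1711 in naive cells (2.20-fold higher), with log2 ratios from 1.14 to 2.02 over its 3 measured probe sets. Mafg, a small partner of Bach1 and Nfe2l2, was at 170 and 49.2 (at least 1.70-fold higher), and Mafk was at 400.0 and 402. Zfp36, which encodes the RNA decay factor tristetraprolin, was at 299 in activated and 1137 in naive cells (3.80-fold lower), and its relative Zfp36l1 at 1503 and 2855 (1.90-fold lower). Epas1, a hypoxia factor gene whose own message carries an iron-responsive hairpin, lay under 100 on both arrays at 86.7 and 80.1.

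Hmox1 encodes the inducible heme oxygenase, which frees iron from heme. Its single probe set was at 120 in activated and 80.1 in naive cells, a ratio of at least 1.202-fold that did not pass the size rule. The gene stayed near the floor on both arrays, where difference-model values carry little information. In contrast, the constitutive enzyme gene Hmox2 was at 1599 in activated and 999 in naive cells (1.602-fold higher). Blvra, biliverdin reductase A, which acts on the product of both oxygenases, was at 743 and 466 (1.59-fold higher). These were the 2 higher genes among 3 measured of 9 listed for heme uptake and breakdown. Only 3 measured genes are too few to set against the 23.7% of all measured genes that were higher. The remaining measured one was the heme transporter gene Slc48a1 at 241 and 193. Of the others with a probe set of their own, Blvrb, Slc46a1, Hpx, Hp and Cd163 lay under 100 on both arrays.

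Heme synthesis draws on the same iron, and 5 of its 11 measured genes were higher (45.5%) and 2 lower (18.2%) in activated cells, against 23.7% and 20.6% of all measured genes. The median log2 ratio was 0.28. Alas1, the first enzyme of the pathway outside red cells, was at 415 in activated and 212 in naive cells (1.96-fold higher). Alad, the second enzyme, was at 463 and 224 (2.07-fold higher), and Cpox, a later one in mitochondria, at 908 and 456 (1.99-fold), although another measured probe set of Cpox gave a log2 ratio of 0.11. Abcb6, a porphyrin transporter gene, was at 264 and 101 (2.62-fold higher), and Tmem14c, needed for porphyrin import into mitochondria, at 1310 and 879 (1.49-fold). Both lower genes, Uros (208 in activated, 413 in naive, 1.99-fold) and Ppox (194 and 333, 1.72-fold), encode enzymes of the same route. The list therefore did not move as one. Fech, which inserts iron into the ring, was at 439 in activated and 467 in naive cells, Urod at 1126 and 987, and Abcb10 at 121 and 82.3. Alas2, the red cell form of the first enzyme, was at 1 in activated and 127 in naive cells. The 5 globin probe sets above 1000 in naive cells ran in the same direction.

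In mitochondria, all 15 listed genes of iron import and iron-sulfur cluster assembly that had a probe set of their own were measured, with a median log2 ratio of 0.18. The 4 higher (26.7%) and 2 lower (13.3%) genes stood near the shares of all measured genes, 23.7% and 20.6%. Both lower genes were the iron importers of the inner membrane. Slc25a37, mitoferrin 1, was at 395 in activated and 601 in naive cells (1.52-fold lower), and Slc25a28, mitoferrin 2, at 324 and 543 (1.68-fold lower). Slc25a37 is best known from red cell precursors, and it ran in the same direction as the 5 globin probe sets above 1000 in naive cells. Slc25a28 was lower in activated cells as well, as were 20.6% of all measured genes. The part of red cells in the values of Slc25a37 and Slc25a28 was not tested. The chaperone gene Hspa9 was at 3425 in activated and 1710 in naive cells (2.00-fold higher), with 5 measured probe sets between -0.05 and 1.71 on the log2 scale. Glrx5, a cluster carrier, was at 2818 and 1726 (1.63-fold higher), Nubpl, which serves respiratory complex I, at 305 and 153 (1.99-fold), and the ferredoxin gene Fdx1 at 611 and 421 (1.45-fold). The scaffold gene Iscu was at 770.5 in activated and 951 in naive cells and the sulfur donor Nfs1 at 687 and 524, neither past the size rule. Nearest to no difference were Nfu1 (1061 in activated, 1034 in naive), Hscb (361 and 376) and Isca1 (837 and 775).

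In the cytosol, 9 genes of iron-sulfur cluster assembly were measured, with a median log2 ratio of 0.30. Of these 2 were higher and 2 lower (22.2% each), near the 23.7% and 20.6% of all measured genes. The scaffold pair Nubp1 and Nubp2 was higher in activated cells, at 1689 and 1076, against 1002 and 604 in naive cells (1.69-fold and 1.78-fold). Mms19, which passes clusters to DNA enzymes, was at 364 in activated and 510.4 in naive cells (1.40-fold lower, on the limit), and Bola2 at 1055 and 1481 (1.40-fold lower, on the limit). The other measured probe set of Mms19 gave a smaller difference, -0.24 on the log2 scale. The 4 measured probe sets of Bola2 ran between -0.50 and -0.24. Ciao3 (370.1 in activated, 375 in naive) and Ciao1 (805 and 734) did not pass, nor did Ciao2b (1286 and 1042).

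**Figure D4:**
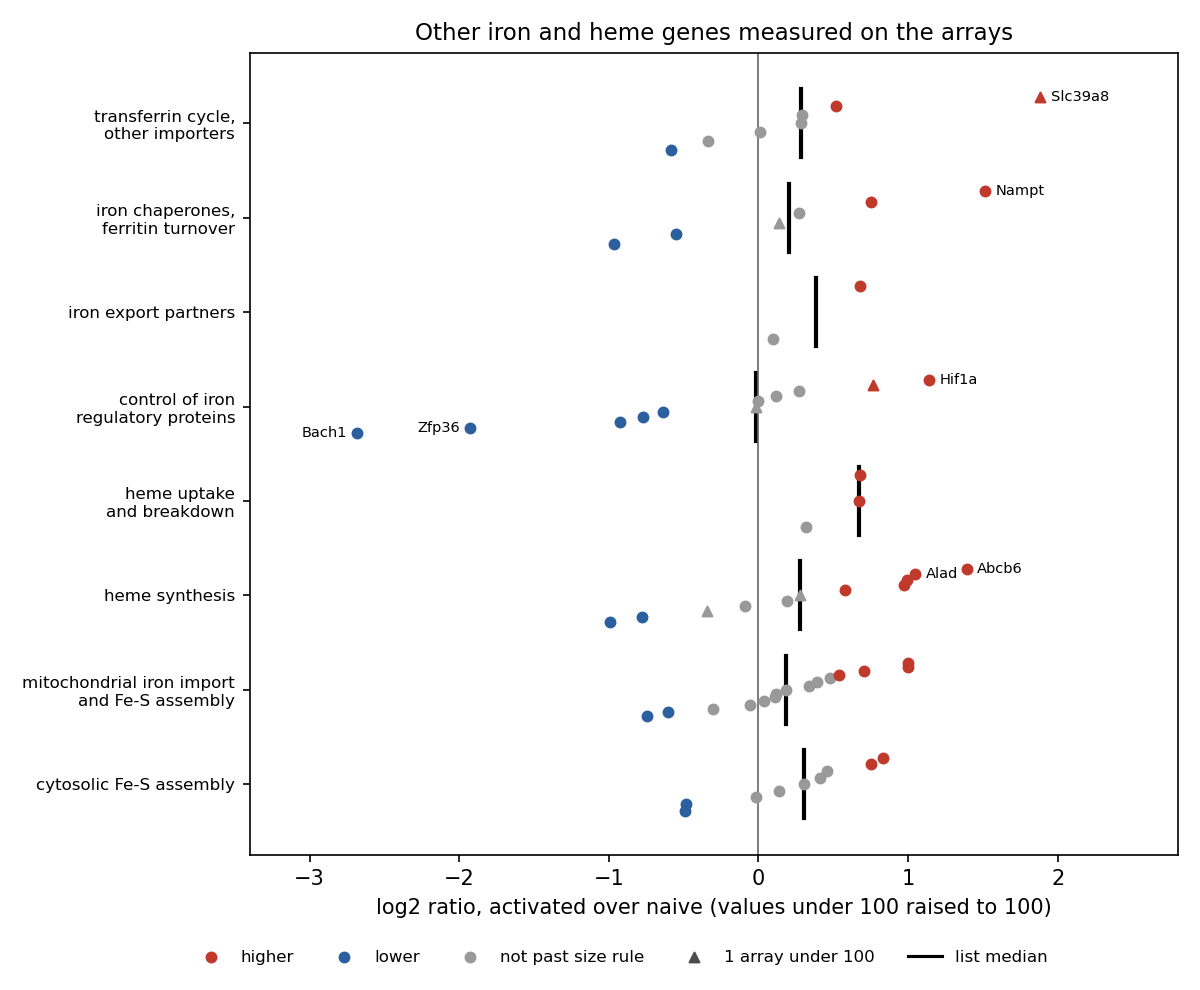
log2 ratio of activated over naive cells for each measured gene of the 8 other iron and heme lists, coloured by the size rule, with a black bar at the list median and triangles where 1 array was under 100. Medians lie between -0.02 and 0.67, genes lie on both sides of 0 in most lists, and Bach1 at -2.68 and Slc39a8 at 1.88, a lower bound, are the outermost points drawn.

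Over all 8 lists, 94 genes were named, 84 had a probe set of their own, 20 of these lay under 100 on both arrays and 64 were measured. Of the 64, 20 were higher (31.2%) and 14 lower (21.9%) in activated cells, against 23.7% and 20.6% over all measured genes, and the median log2 ratio was 0.23 against 0.01. The share of lower genes lay near that of all genes. With a fold minimum of 2, 6 of the 64 were higher, against 1193 of all 9842 measured genes. The larger share of higher genes therefore did not hold at that minimum.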

How the data were processed

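The authors deposited 1 intensity per probe set and array on a linear scale, from Affymetrix Mouse Genome 430 2.0 arrays. Per the series' design text, these were computed with the perfect-match minus mismatch model of dChip and scaled to an invariant set, with no dChip version stated. Per the submitters' processing notes GCOS was also run, and its present calls were not used here. Difference-model values near background are unstable, hence the floor of 100. Probe sets were named from the platform annotation, and a probe set with several symbols names no gene, except for Ftl1, whose probe sets are all shared. A gene's brightest probe set by its 2-array mean stood for it, and 64 controls were left out of this and of the shares over all probe sets. Any measured gene of the iron lists could be named, all that passed the size rule were, and so were the 3 genes nearest to Tfrc. List genes under 100 on both arrays were named after their values were seen. The members and lists were chosen with earlier results of these data known. With 1 array per group no test was possible. Alternatives were another fold, difference or floor, 3 scalings, and other ways to represent a gene. Python 3.11.15 and statsmodels 0.14.6 were used.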

Additional observations from a re-analysis of the deposited data

How the results depend on the processing

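Under 10 alternatives, 66 of 76 recomputed counts of calls stayed within 1.5 times their value and 38 of 40 recomputed member ratios moved by less than the 0.39 seen between probe sets of a gene. Some of these ratios could not move. The brightest probe sets of Tfrc, Fth1, Slc11a2, Ireb2 and Aco1 exceeded 200 on both arrays, so another floor left them unchanged. Ireb2 and Hmox1 have a single probe set, so other ways to represent a gene left them unchanged. With a fold minimum of 2, 1193 of all 9842 measured genes were higher and 904 lower. Of the 64 measured genes of the iron lists, 6 were then higher and 2 lower, both smaller shares than over all genes. Member genes gave 1 higher (Tfrc), and member probe sets gave 1 lower. Member probe sets also gave 1 lower with a difference minimum of 200 and with a floor of 200. Without probe sets whose names end in _s_at, _x_at or _a_at, the iron lists had 9 lower genes in place of 14 and 19 higher in place of 20. All genes had 1759 lower in place of 2027 and 1876 higher in place of 2334. Genes with no other probe set drop out in that setting, and shares were not formed for it. Member genes then had 1 lower, since Slc11a2 gave -1.11 on the log2 scale, Aco1 gave 1.36, and Fth1 had no value. Hmox1 had no value with a floor of 200. No scaling moved the median of all genes by over 0.1 on the log2 scale. No paired analysis was possible because each group had 1 array, and no replicate could be left out. Intensities near the floor limit what can be said of Slc40a1 and Hmox1 and of the size of the Tfrc ratio at 5 of its 6 probe sets.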
